A study of Homo sapiens with 24 samples.

Results

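DG-75 cells exposed to AZD5153 (AZD) alone were compared with DG-75 cells exposed to the solvent DMSO across every gene on the array. DG-75 is a long-established line of Burkitt lymphoma, a B-cell tumour driven by a translocated MYC gene, and AZD5153 is a bivalent inhibitor of the bromodomain and extra-terminal (BET) proteins. The comparison took all 3 AZD arrays (0.01 µM AZD5153, 72 h) and all 3 DMSO arrays (72 h) of this line, which made 6 of the 24 Clariom D arrays of the study. The remaining arrays of DG-75 carried 1 µM Entospletinib (Ento), an inhibitor of the tyrosine kinase SYK, without or with 0.01 µM AZD5153, and the diffuse large B-cell lymphoma line SU-DHL-4 had the same 4 treatments with 3 arrays each. The labels number the arrays 1 to 3 within a group and do not say whether these came from separate cultures. The study's statistics section speaks of biologically independent samples in general, without naming the arrays, so that p-values measure the spread between arrays, part of which may be technical.

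BET proteins bind acetylated lysines on histones through their bromodomains and bring the elongation factor P-TEFb to promoters and enhancers. In B-cell lymphoma they are known for their role at genes with large enhancers, among them MYC and B-cell lineage genes. P-TEFb is held inactive by HEXIM1, and a rise of HEXIM1 mRNA is a commonly used readout of BET inhibition.

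Every array gave 25575 log2 values, and a gene was called where limma's adjusted p was under 0.05 and the change exceeded 2-fold. Array medians were 5.05 to 5.14 in the DMSO arrays and 5.01 to 5.05 in the AZD arrays, and the groups did not overlap in this. Replicate arrays correlated at 0.986 to 0.992 across genes in the DMSO group and at 0.989 to 0.992 in the AZD group. The 8 B-cell markers (among them MS4A1, CD79A, CD79B, CD22, PAX5, BLK and FCRLA) had a mean log2 level of 8.63 to 9.17 in these 6 arrays, while 12 genes of unrelated tissues stood at 4.16 to 4.45, 9 T-cell markers at 3.57 to 3.83 and 8 myeloid markers at 3.75 to 4.04. 

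After 72 h of AZD, 46 of 25575 rows were called, each a different gene, 4 of them higher and 42 lower. Without the replicate number as a term there were 39 calls (1 higher), and with only the groups compared 12 (0 higher). The rows held 25161 symbols. The lower genes included the proton channel gene HVCN1, the SRC family kinase LCK, the transcription factor MYB, the interleukin 7 receptor IL7R, the FAM72 gene copies and genes of DNA replication and recombination. The higher genes were TXNIP, TP53INP1, PIK3R3 and TSPAN31. Called changes ran from -2.13 to -1.01 and from 1.05 to 1.22 on the log2 scale. Calls made up 0.18% of all rows, with 0.0156% higher and 0.164% lower. At an unadjusted p under 0.05 there were 641 higher rows (2.51%) and 2896 lower rows (11.3%), against about 1279 of both directions together expected if no gene had changed. Over all rows the median log2 fold change was -0.06, the middle 50% of rows lay between -0.24 and 0.09, and the median standard error (SE) was 0.17. Lower rows were 81.9% of the rows at that p, 63.3% after subtraction of each array's median and 53.8% after quantile normalization, and with these scalings 0 and 2 genes (1 higher and 1 lower) were called by limma. The smallest adjusted p was 0.0471 and that of the last called gene 0.04997, so that all calls sat just under the threshold. None of the 46 genes kept an adjusted p under 0.05 when any single DMSO or AZD array was left out. The smallest adjusted p in those 6 fits was 0.0791 without AZD replicate 2, 0.0993 without DMSO replicate 3, 0.115 without AZD replicate 3, 0.127 without DMSO replicate 2, 0.294 without AZD replicate 1 and 0.364 without DMSO replicate 1. The direction of all 46 was the same in those fits, and 28 stayed beyond 2-fold in each of them. All 46 had been called on these arrays and had groups without overlap, so that the kept direction is no sign of stability.

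Of the 4 genes called higher, TXNIP, an alpha-arrestin that binds thioredoxin and limits glucose uptake, had the smallest SE. TXNIP stood at 9.25, 9.17 and 9.30 in the DMSO arrays and at 10.39, 10.25 and 10.21 in the AZD arrays. All AZD arrays lay well above all DMSO arrays, and the log2 fold change was 1.05 (SE 0.13, adjusted p = 0.0471, n = 3 and 3). TP53INP1, a p53-inducible gene of autophagy and cell death, rose from 6.76, 6.85 and 7.06 to 8.02, 7.98 and 8.33 (log2 fold change 1.22, SE 0.21, adjusted p = 0.0487). PIK3R3, a regulatory subunit of PI3 kinase, was at 6.89, 6.29 and 7.61 in DMSO and at 8.12, 7.84 and 8.18 in AZD (1.12, SE 0.19, adjusted p = 0.0487). The DMSO arrays of PIK3R3 spread more widely than its AZD arrays, and the lowest AZD array was close above the highest DMSO array. TSPAN31, a tetraspanin, was at 7.62, 7.70 and 8.04 in DMSO and at 9.14, 8.44 and 9.08 in AZD (1.10, SE 0.18, adjusted p = 0.048). 6 further genes passed the adjusted p and stayed under 2-fold, among them MXD4, the zinc transporter SLC30A4 (0.97, SE 0.16, adjusted p = 0.0471) and the mitochondrial carrier UCP2 (0.90, SE 0.15, adjusted p = 0.0487), which was named after its values were seen.

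**Figure D1:**
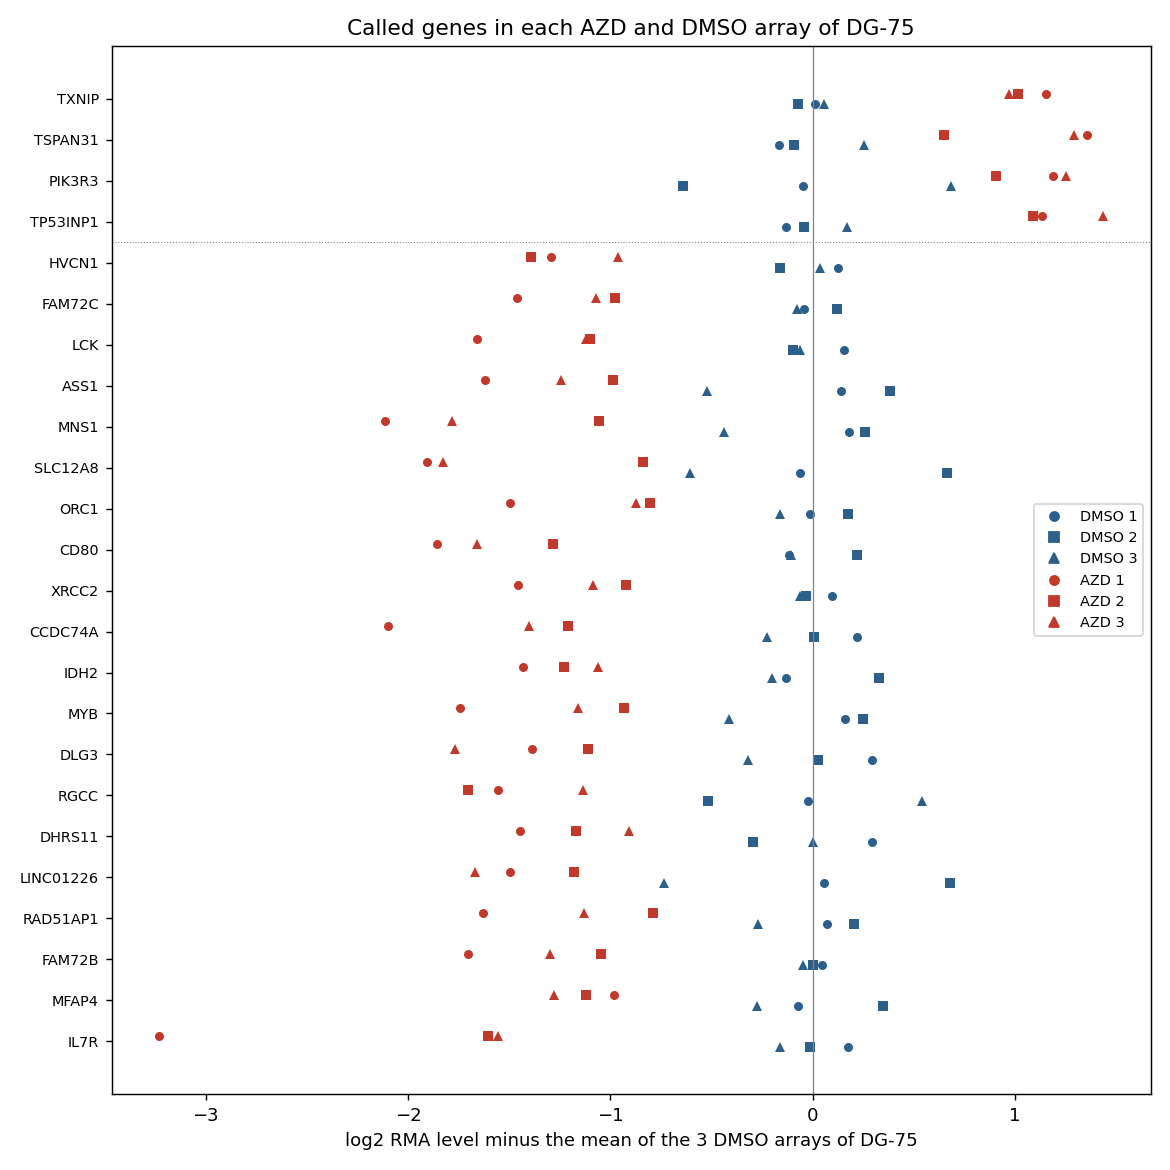
Log2 RMA level of the 4 genes called higher and of the 20 genes called lower with the smallest p, minus the mean of the 3 DMSO arrays of DG-75, on the horizontal axis. Blue marks are DMSO arrays, red marks are AZD arrays, and the shape gives the replicate number. Red and blue do not overlap for any gene shown, and AZD replicate 1 of IL7R lies apart from the other two.

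Among the genes called lower, HVCN1 had the smallest p. HVCN1 encodes the voltage-gated proton channel of B cells and phagocytes, which supports the NADPH oxidase. It stood at 6.64, 6.36 and 6.56 in DMSO and at 5.23, 5.12 and 5.56 in AZD, without overlap (log2 fold change -1.22, SE 0.14, adjusted p = 0.0471). None of the oxidase subunits measured was called. The membrane subunit CYBB was at 4.47, 4.74 and 4.51 in DMSO and at 3.91, 3.79 and 4.86 in AZD (-0.39, SE 0.23, adjusted p = 0.498), so that its groups overlapped. The regulatory GTPase RAC2 was 0.32 higher at an adjusted p of 0.293, and CYBA, NCF1 and NCF4 lay between 0.11 and 0.29 with adjusted p of 0.412 to 0.791.

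LCK, a SRC family kinase known mainly from T cells and also expressed in some B-cell tumours, went from 9.18, 8.92 and 8.96 to 7.36, 7.92 and 7.90 (log2 fold change -1.29, SE 0.17, adjusted p = 0.0471). None of the 9 T-cell markers (CD3D, CD3E, CD3G, CD2, CD5, CD8A, CD4, TRAT1, LAT) reached an unadjusted p of 0.05, and their mean level was 3.57 to 3.83 in DMSO and 3.64 to 3.75 in AZD. The 8 myeloid markers and the 7 NK-cell markers also had no member at an unadjusted p under 0.05. Of the 35 measured members of the B-cell receptor and SRC kinase list 4 were higher and 5 lower at an unadjusted p under 0.05, and the median change of the list was 0.03. SYK itself was at 8.76, 8.89 and 8.52 in DMSO and at 8.87, 8.73 and 8.91 in AZD (0.11, SE 0.14, adjusted p = 0.816), with overlapping groups. After subtraction of each array's median 8 members of this list were higher and 4 lower at that p, and after quantile normalization 10 were higher and 3 lower. Without AZD replicate 1 there were 3 lower, and without AZD replicate 2 or DMSO replicate 2 there were 2 higher.

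Further lower genes are described together here, among them genes known from lymphocytes. They were put together after their values were seen, come from no fixed list and were not tested as a group. IL7R, a cytokine receptor subunit of early lymphocytes, had the largest change among the called genes. It stood at 7.996, 7.81 and 7.66 in DMSO and at 4.59, 6.22 and 6.27 in AZD (log2 fold change -2.13, SE 0.34, adjusted p = 0.0471). AZD replicate 1 was far below the other two, and over the fits that left out 1 array the change ranged from -2.42 to -1.58. CD80, a costimulatory ligand for CD28 and CTLA4, went from 6.996, 7.33 and 7.01 to 5.26, 5.83 and 5.46 (-1.60, SE 0.24, adjusted p = 0.0471). MYB, a transcription factor of blood progenitors and germinal centre B cells, went from 9.25, 9.34 and 8.68 to 7.35, 8.16 and 7.93 (-1.28, SE 0.19, adjusted p = 0.0471). RGCC, a regulator of the cell cycle found through its response to complement, was at 4.09, 3.59 and 4.65 in DMSO and at 2.55, 2.40 and 2.97 in AZD (-1.47, SE 0.23, adjusted p = 0.0471), with all AZD arrays below all DMSO arrays. Its means were 4.11 in DMSO and 2.64 in AZD, below the list means of 4.16 to 4.45 for the genes of unrelated tissues. No detection value was used for such low levels. MZB1, a chaperone of immunoglobulin assembly and a plasma cell marker, was called as well (-1.07, SE 0.17), while TNFRSF17, the receptor BCMA of plasma cells, had a log2 fold change of -1.24 (SE 0.26) at an adjusted p of 0.0693. Of the 6 plasma cell markers 3 were lower and 1, XBP1 (0.29, SE 0.13, adjusted p = 0.342), was higher at an unadjusted p under 0.05, SDC1 had a log2 fold change of -0.02 and the list median was -0.42. PLEK, a protein kinase C substrate of blood cells, changed by -1.01 (SE 0.17) and KIAA0040, a gene of unknown function, by -1.16 (SE 0.19), both at an adjusted p of 0.0471.

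Lists of general B-cell markers and of germinal centre markers had medians of opposite sign. 4 of the 8 B-cell markers were higher at an unadjusted p under 0.05, none was lower, and the median log2 fold change of the list was 0.41. The 4 were 2 without AZD replicate 2, DMSO replicate 1 or DMSO replicate 2. The antigen receptor partner CD79A was at 11.42, 11.24 and 11.31 in DMSO and at 11.81, 11.65 and 11.59 in AZD (0.36, SE 0.14, adjusted p = 0.288). MS4A1, which encodes CD20, was at 7.20, 6.49 and 7.69 in DMSO and at 7.85, 7.96 and 7.68 in AZD (0.71, SE 0.26, adjusted p = 0.248), with groups that overlapped slightly. No marker of this list passed the adjusted p. Of 8 markers of germinal centre B cells and Burkitt lymphoma 7 had a negative change and none was called, with a median of -0.33. MME (-0.53, SE 0.24, adjusted p = 0.355) and TCF3 (-0.30, SE 0.12, adjusted p = 0.313) were lower at an unadjusted p under 0.05 and CD38 was higher (0.44, SE 0.16, adjusted p = 0.224). After either other scaling none of the 8 was lower at that p, and without a single array it was 0 or 1. Of 30 B-cell transcription factors 1, MYB, was called, 6 were lower and 2 higher at an unadjusted p under 0.05, and the median was -0.07. After median subtraction 4 were lower and 3 higher, and after quantile normalization 3 were lower and 3 higher with a median of 0.10. Without AZD replicate 1 or DMSO replicate 1 there were 3 lower, without any 1 of the other 4 arrays 4 to 6, and in these 6 fits 0 or 1 higher. BCL6 (-0.10, SE 0.14, adjusted p = 0.841) and PAX5 (-0.09, SE 0.16, adjusted p = 0.881) were within 1 SE of no change. Among 14 genes of MHC class II presentation none was called, 3 were higher and 1 was lower at an unadjusted p under 0.05, led by the peptide-loading modulator HLA-DOB (0.65, SE 0.14, adjusted p = 0.0722) and by RFXAP, a subunit of the factor that binds class II promoters (-0.73, SE 0.18, adjusted p = 0.102). The 3 higher genes were 5 after median subtraction and 7 after quantile normalization.

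Genes of the drug target and of transcription elongation were not called. None of the 22 measured members of the list of BET proteins and elongation factors was called, 2 were higher and 1 was lower at an unadjusted p under 0.05, and the median was 0.01. HEXIM1 was at 7.18, 6.79 and 7.28 in DMSO and at 8.10, 7.63 and 7.83 in AZD. All AZD arrays lay above all DMSO arrays, and the log2 fold change of 0.77 (SE 0.17) had an adjusted p of 0.0768. The BET proteins BRD2 (0.17, SE 0.12, adjusted p = 0.577) and BRD3 (0.03, SE 0.15, adjusted p = 0.966) were not called. The testis-specific BRDT was 0.36 higher at an adjusted p of 0.256, and the CDK-activating kinase CDK7 had a log2 fold change of -0.41 at an adjusted p of 0.225. After quantile normalization 6 of the 22 were higher at an unadjusted p under 0.05, and over the fits without 1 array 1 or 2 were higher and 0 to 2 lower.

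MYC itself was at 10.02, 10.13 and 9.79 in DMSO and at 9.80, 9.78 and 9.67 in AZD. The highest AZD array just exceeded the lowest DMSO array, and the log2 fold change was -0.23 (SE 0.12, adjusted p = 0.439). Of the 13 genes of the MYC, MAX and MXD network the one that passed the adjusted p was MXD4, a repressor that competes with MYC for MAX. MXD4 rose from 8.57, 8.14 and 8.89 to 9.61, 9.30 and 9.46 (0.92, SE 0.15, adjusted p = 0.0471) and stayed under 2-fold. MXI1, another MAX-binding repressor, had a change of -0.40 (SE 0.17, adjusted p = 0.322) with overlapping groups. Of 39 measured nucleolar and metabolic genes of the MYC programme none was called, 17 were lower and 1 was higher at an unadjusted p under 0.05, and 36 had a negative change. The list median was -0.30, against -0.06 over all rows. The count of 17 was 12 after subtraction of array medians, 8 after quantile normalization and 4 without DMSO replicate 1. The member with the lowest change was the folate enzyme MTHFD1 (-0.70, SE 0.19, adjusted p = 0.117), and IMPDH2, an enzyme of guanine nucleotide synthesis, was the one that was higher (0.36, SE 0.13, adjusted p = 0.231).

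The broadest pattern was in cell cycle genes. All 52 genes of the G1/S and DNA replication list had a negative change, 46 of them at an unadjusted p under 0.05 and none in the other direction, against 11.3% of all rows lower at that p. The list median was -0.74, and in 45 of the 52 every AZD array lay below every DMSO array, which held for 14.6% of all rows (4.5% had every AZD array above). Of the 57 genes of the G2/M and mitosis list 56 had a negative change, 54 were lower at an unadjusted p under 0.05, 52 were without overlap and the median was -0.71. Of the first list 1 gene and of the second none was called. In these lists 8 and 4 genes were more than 2-fold lower, against 188 of all 25575 rows. In the same lists 24 and 22 genes were lower at an adjusted p under 0.10, against 386 of all rows. ORC1, a subunit of the origin recognition complex that marks replication origins, was the called gene. It went from 8.68, 8.87 and 8.54 to 7.20, 7.89 and 7.82 (-1.06, SE 0.16, adjusted p = 0.0471). The replicative helicase subunit MCM7 (-0.79, SE 0.13, adjusted p = 0.0487), GINS1 of the same helicase (-0.96, SE 0.17), the mitotic kinase AURKA (-0.79, SE 0.14) and the cytokinesis motor KIF14 (-0.82, SE 0.14) also passed the adjusted p, the last 3 at 0.0495. E2F8, an E2F repressor (-1.29, SE 0.30, adjusted p = 0.0872), CDC25A, the phosphatase that opens S phase (-1.19, SE 0.26, adjusted p = 0.0787), and CHAF1B, a histone chaperone of replicating chromatin (-0.99, SE 0.18, adjusted p = 0.056), did not.

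AZD replicate 1 had the lowest level of both lists. The mean level over the 52 G1/S genes was 8.68, 8.48 and 8.57 in the DMSO arrays and 7.47, 8.04 and 7.99 in the AZD arrays. Over the 57 G2/M genes it was 9.09, 8.94 and 9.07 in DMSO and 7.94, 8.52 and 8.50 in AZD. Without AZD replicate 1 the medians were -0.55 and -0.53, with 38 of 52 and 46 of 57 genes lower at an unadjusted p under 0.05, and without DMSO replicate 1 the medians were -0.58 and -0.57 with 39 and 44 genes. Array median subtraction gave medians of -0.68 and -0.65 and quantile normalization -0.59 and -0.55. RNA of a population does not tell a smaller share of dividing cells from less of these RNAs per cell.

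**Figure D2:**
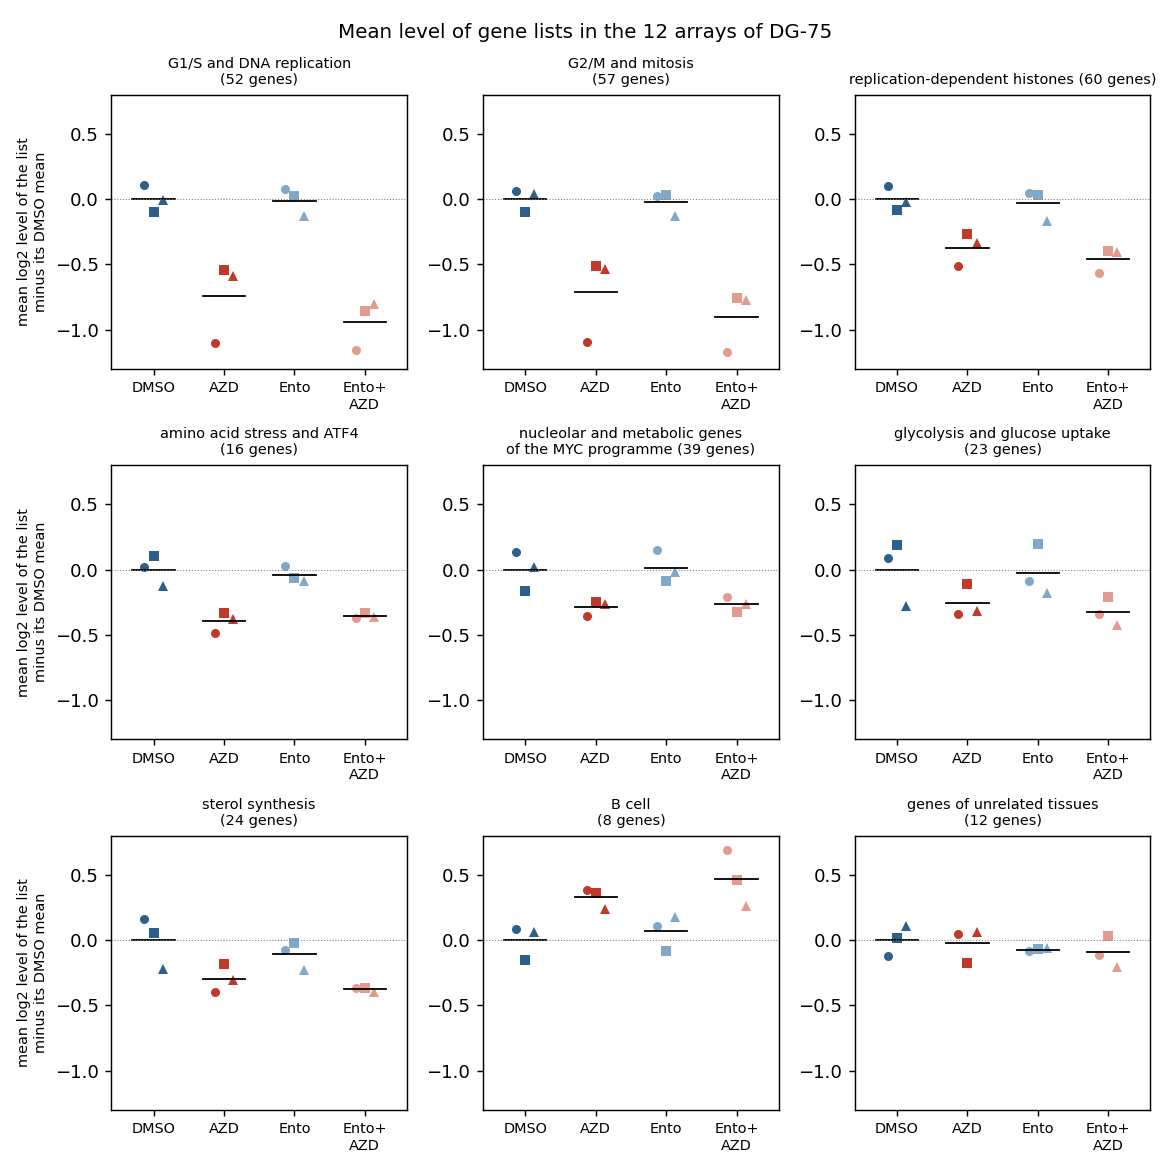
Mean log2 level of 9 gene lists in each of the 12 arrays of DG-75, minus the mean of the 3 DMSO arrays, on the vertical axis, with the 4 treatments on the horizontal axis. Each mark is an array (shape gives the replicate number) and the line is the mean of 3. Both cell cycle lists are lower in all AZD and Ento+AZD arrays than in any array without AZD, while genes of unrelated tissues are not separated.

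Promoter letters were counted in both lists. The lists are made of known cell cycle genes, where E2F and CHR letters are frequent whatever AZD does, so that these shares describe the lists and are no evidence on AZD. E2F factors bind letters such as TTTCCCGC, TTTGGCGC, TTTCGCGC or TTTGCCGC, the cell cycle homology region (CHR) of mitotic genes has the letters TTTGAA, and the CCAAT box binds NF-Y. All were searched on both strands in the 250 bases upstream of the start in the RefSeq promoter windows (GRCh38.p14), where E2F letters can overlap one another on opposite strands. The E2F letters were in 35.1% of 57 windows from 44 G1/S genes, in 6.45% of 62 windows from 49 G2/M genes and in 2.79% of all 35116 windows. The CHR letters were in 8.77% of the G1/S windows, 46.8% of the G2/M windows and 13.3% of all windows. The CCAAT letters were in 61.4%, 71.0% and 32.0%, and the E-box letters CACGTG, read by MYC and MAX, in 10.5%, 9.68% and 6.34%. Among 48 windows of 31 genes called lower the E2F letters were in 4.17%, the CHR letters in 12.5%, the CCAAT letters in 37.5% and the E-box letters in 6.25%. Among the 23960 windows of genes on the array the same letters were in 3.3%, 11.3%, 32.7% and 7.11%. A match is a run of letters and no binding site.

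The sequences below show these letters in capitals upstream of TXNIP, the called gene with the tightest arrays among those higher, and of the G1/S and G2/M genes with 1 window and the smallest p that hold E2F or CHR letters. DTL, the substrate receptor of a ubiquitin ligase of S phase, had a log2 fold change of -1.01 (SE 0.20, adjusted p = 0.0649), and MCM6, a helicase subunit, one of -0.84 (SE 0.17, adjusted p = 0.0679). CCNB2, a cyclin of mitosis, had one of -0.92 (SE 0.18, adjusted p = 0.0621), and CENPA, the centromeric histone, one of -0.68 (SE 0.15, adjusted p = 0.0741). The windows lie at chr1:145996580-145996829, minus strand (TXNIP), chr1:212035498-212035747, plus strand (DTL), chr2:135876444-135876693, minus strand (MCM6), chr15:59104896-59105145, plus strand (CCNB2) and chr2:26785806-26786055, plus strand (CENPA).
TXNIP: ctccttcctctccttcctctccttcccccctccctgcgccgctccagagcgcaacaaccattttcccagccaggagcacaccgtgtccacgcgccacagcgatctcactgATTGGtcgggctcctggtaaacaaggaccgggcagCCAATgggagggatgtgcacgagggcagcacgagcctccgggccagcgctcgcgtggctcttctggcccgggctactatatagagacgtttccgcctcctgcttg
DTL: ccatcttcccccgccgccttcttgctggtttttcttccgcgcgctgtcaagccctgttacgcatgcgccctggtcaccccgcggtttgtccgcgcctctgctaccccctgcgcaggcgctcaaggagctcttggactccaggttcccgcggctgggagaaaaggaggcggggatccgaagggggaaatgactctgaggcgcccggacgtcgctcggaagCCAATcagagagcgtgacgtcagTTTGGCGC
MCM6: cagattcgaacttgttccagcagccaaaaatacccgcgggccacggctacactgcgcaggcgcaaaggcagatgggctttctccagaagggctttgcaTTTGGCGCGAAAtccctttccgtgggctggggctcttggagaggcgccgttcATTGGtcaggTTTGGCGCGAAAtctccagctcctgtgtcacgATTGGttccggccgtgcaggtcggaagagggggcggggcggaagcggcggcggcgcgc
CCNB2: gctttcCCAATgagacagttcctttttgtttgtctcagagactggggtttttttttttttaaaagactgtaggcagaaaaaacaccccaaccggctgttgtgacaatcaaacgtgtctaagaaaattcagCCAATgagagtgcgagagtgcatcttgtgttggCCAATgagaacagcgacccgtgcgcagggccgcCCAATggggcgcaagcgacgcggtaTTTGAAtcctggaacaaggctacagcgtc
CENPA: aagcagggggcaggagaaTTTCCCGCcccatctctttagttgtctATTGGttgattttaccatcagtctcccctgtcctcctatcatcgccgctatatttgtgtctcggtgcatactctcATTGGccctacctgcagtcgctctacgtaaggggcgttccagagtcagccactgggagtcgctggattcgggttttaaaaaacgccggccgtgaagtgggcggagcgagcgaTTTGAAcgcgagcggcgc
Read 5′ to 3′ and ending at the base before the start, TXNIP has CCAAT letters that begin 140 and 105 bases upstream and none of the others. DTL has E2F letters 8 bases and CCAAT letters 31 bases upstream. MCM6 holds overlapping pairs of E2F letters that begin 152 and 90 bases upstream and CCAAT letters at 100 and 58 bases. CCNB2 has 4 CCAAT matches ahead of the CHR letters at 29 bases, and CENPA, of the G2/M list, has E2F letters at 232 bases, CCAAT letters at 205 and 130 bases and CHR letters 18 bases upstream.

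Several called genes outside both lists act in chromosome replication and repair, and were put together after their values were seen, with no test as a group. XRCC2, a gene of homologous recombination, went from 9.43, 9.31 and 9.28 to 7.88, 8.42 and 8.26 (log2 fold change -1.15, SE 0.17, adjusted p = 0.0471). RAD51AP1, another gene of this repair pathway, changed by -1.18 (SE 0.19), and MND1, a partner of HOP2 in meiotic recombination, by -1.43 (SE 0.23), both at an adjusted p of 0.0471. FANCD2 of the Fanconi anaemia pathway (-1.19, SE 0.21) and MIS18A, which loads CENPA at centromeres (-1.08, SE 0.18), were called at 0.0495 and 0.0487. All 4 FAM72 copies were called. FAM72A, known for its effect on the uracil glycosylase UNG2 in antibody diversification, stood at 10.32, 10.19 and 10.21 in DMSO and at 8.50, 9.17 and 8.88 in AZD (-1.39, SE 0.24, adjusted p = 0.0495). FAM72B (-1.35), FAM72C (-1.17) and FAM72D (-1.26) had nearly the same change. The copies are nearly identical in sequence, and the signal of one copy's probes may come from another, so that the 4 are not independent genes here. Of the 7 APOBEC3 cytidine deaminases, which edit viral DNA, none was called and 4 were lower at an unadjusted p under 0.05, led by APOBEC3C (9.31, 8.80 and 9.15 in DMSO, 7.42, 8.23 and 8.26 in AZD, log2 fold change -1.12, SE 0.22, adjusted p = 0.0674).

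Histone genes had smaller differences than the cell cycle lists. Of 60 measured replication-dependent histones, which are made in S phase, none was called, 57 had a negative change and 31 were lower at an unadjusted p under 0.05, with a median of -0.36. H4C9 was at 9.64, 9.53 and 9.50 in DMSO and at 8.40, 8.83 and 8.57 in AZD (-0.96, SE 0.18, adjusted p = 0.056). The count of 31 was 16 without DMSO replicate 1, 21 without AZD replicate 1 and 21 after quantile normalization. These genes are near copies of each other, and probes can cross between them. Of 11 replication-independent histones 3 were lower (1 after quantile normalization and without AZD replicate 2 or DMSO replicate 1), among them H2AZ1 (-0.52, SE 0.16, adjusted p = 0.162), and the list median was -0.11. Among 17 CDK inhibitors, D cyclins and RB family genes none was called, 5 were lower and 1 was higher at an unadjusted p under 0.05. The 5 were 3 after either other scaling or without AZD replicate 2, and 2 without AZD replicate 1 or DMSO replicate 1. After quantile normalization 2 were higher. CDK6, a kinase of G1, was lower in all AZD arrays (-0.68, SE 0.16, adjusted p = 0.0866), and the inhibitor CDKN1C was at 6.21, 6.21 and 6.23 in DMSO and at 6.67, 6.61 and 6.56 in AZD (0.40, SE 0.13, adjusted p = 0.185).

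**Figure D3:**
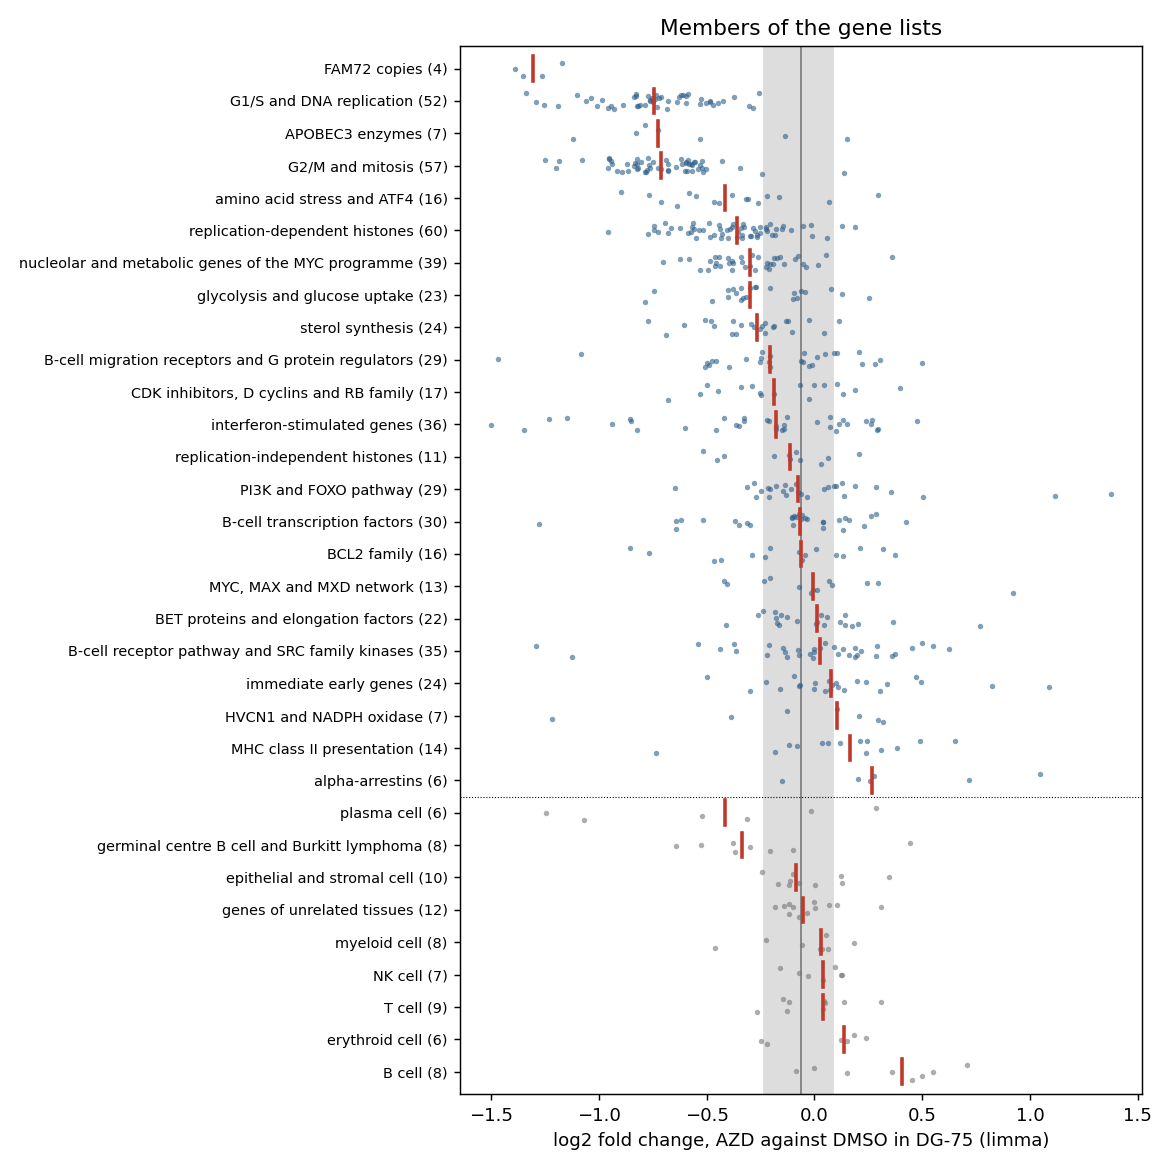
Log2 fold change of AZD against DMSO in DG-75 for each measured member of the gene lists (blue for pathways, grey for cell type markers), with list sizes in parentheses and the list median as a red bar. The grey band holds the middle 50% of all rows (-0.24 to 0.09) and the grey line their median (-0.06). The FAM72 copies, both cell cycle lists and the APOBEC3 enzymes have medians of -0.71 or lower.

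Some called genes act in metabolism or its control, and these too were put together after their values were seen, with no test as a group. ASS1, which makes argininosuccinate in the urea cycle, went from 10.16, 10.40 and 9.50 to 8.40, 9.03 and 8.77 (log2 fold change -1.28, SE 0.18, adjusted p = 0.0471). ARG2, the mitochondrial arginase, changed by -1.27 (SE 0.22, adjusted p = 0.0487). IDH2, the mitochondrial NADP-dependent isocitrate dehydrogenase, went from 7.02, 7.47 and 6.94 to 5.71, 5.91 and 6.08 (-1.24, SE 0.19, adjusted p = 0.0471). EIF4EBP1, a repressor of cap-dependent translation, was the called gene with the largest adjusted p (-1.01, SE 0.18), and the lipoprotein receptor VLDLR changed by -1.17 (SE 0.19, adjusted p = 0.0471). Of 16 genes of the amino acid stress list none was called, 10 were lower at an unadjusted p under 0.05 and the median was -0.41, with TRIB3, a pseudokinase induced by ATF4 (-0.89, SE 0.19, adjusted p = 0.068), ATF5 (-0.71, SE 0.14, adjusted p = 0.0621) and the cystine transporter SLC7A11 (-0.77, SE 0.18, adjusted p = 0.0953) having the smallest p. Of 23 glycolysis genes 9 were lower at that p and the median was -0.30. The count of 9 was 4 after either other scaling, 3 without AZD replicate 1 and 1 without DMSO replicate 1. HK2, which phosphorylates glucose, was at 7.58, 7.76 and 7.12 in DMSO and at 6.40, 7.17 and 6.54 in AZD (-0.79, SE 0.20, adjusted p = 0.108), with overlapping groups. Of 24 sterol synthesis genes 7 were lower, the median was -0.26 and the smallest p belonged to PMVK, a mevalonate pathway kinase (-0.69, SE 0.14, adjusted p = 0.0679). That count was 12 without DMSO replicate 3 and 4 without DMSO replicate 1.

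The remaining calls belonged to none of these groups. MNS1, a structural protein of cilia and flagella, stood at 7.92, 7.997 and 7.30 in DMSO and at 5.63, 6.68 and 5.95 in AZD (log2 fold change -1.65, SE 0.24, adjusted p = 0.0471). SLC12A8, a membrane transporter, was at 6.90, 7.63 and 6.36 in DMSO and at 5.06, 6.12 and 5.13 in AZD (-1.52, SE 0.22, adjusted p = 0.0471). Both groups of SLC12A8 spread over more than a log2 unit and came close to each other. CCDC74A (-1.57, SE 0.24), the scaffold protein DLG3 (-1.42, SE 0.22), the short-chain reductase DHRS11 (-1.17, SE 0.18), the matrix protein MFAP4 (-1.13, SE 0.18), ITPRIPL1 (-1.07, SE 0.18), PRELID3A (-1.33, SE 0.22) and CCDC167 (-1.01, SE 0.16) were lower at an adjusted p of 0.0471. ATL3, which shapes the endoplasmic reticulum, was lower at 0.0487 (-1.20, SE 0.21). The noncoding transcripts LINC01226 (-1.45, SE 0.23) and FAM167A-AS1 (-1.39, SE 0.23) were lower as well. LINC01226 was at 4.13, 4.75 and 3.33 in DMSO and at 2.57, 2.89 and 2.40 in AZD, low levels for which no detection value was used. MFAP4, with means of 4.52 in DMSO and 3.40 in AZD, was low as well.

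Beside TXNIP the alpha-arrestin ARRDC3, an adaptor for receptor degradation, was at 8.88, 8.61 and 8.74 in DMSO and at 9.72, 9.19 and 9.46 in AZD (0.72, SE 0.13, adjusted p = 0.056). The median over the 6 alpha-arrestins was 0.27, and ARRDC1, ARRDC2, ARRDC4 and ARRDC5 had adjusted p of 0.52 to 0.723. In the PI3K and FOXO list of 29 genes PIK3R3 was called, and 4 genes were higher and 1 was lower at an unadjusted p under 0.05. The 4 were 7 after quantile normalization and 2 without AZD replicate 3 or DMSO replicate 2. SESN3, a stress-induced inhibitor of mTORC1 and a known FOXO target, was at 5.33, 4.32 and 5.73 in DMSO and at 6.60, 6.49 and 6.42 in AZD (1.38, SE 0.29, adjusted p = 0.068). The change of SESN3 was larger than that of any called higher gene, but its DMSO arrays spread over more than a log2 unit. Of 24 immediate early genes none was called, and 2 were higher and none lower at an unadjusted p under 0.05 (4 higher after quantile normalization, 3 after median subtraction, 1 without DMSO replicate 1). The 2 were the antiproliferative gene BTG2 (7.75, 7.98 and 8.35 in DMSO, 9.30, 8.77 and 9.27 in AZD, 1.09, SE 0.20, adjusted p = 0.056) and the activation marker CD69 (0.82, SE 0.26, adjusted p = 0.179). Of 16 BCL2 family genes 4 were lower and 2 higher at that p, against 1 lower without AZD replicate 1, 2 lower without DMSO replicate 1 or 3 and at most 1 higher without any 1 of the 6 arrays. BID, a BH3 protein that links death receptors to mitochondria, was lower (-0.77, SE 0.16, adjusted p = 0.0679), and MCL1, a survival protein, was 0.32 higher (SE 0.14, adjusted p = 0.361). Of 29 genes of the list of migration receptors and G protein regulators 7 were lower at an unadjusted p under 0.05, against 4 without DMSO replicate 2. RGCC, a listed gene that is neither, was the called one, and the other lower genes included RGS9 (-1.08, SE 0.21, adjusted p = 0.0646) and the sphingosine receptor S1PR2 (-0.50, SE 0.13, adjusted p = 0.114).

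Interferon-stimulated genes differed between the DMSO arrays themselves. The mean level of the 36 genes was 4.88, 4.59 and 5.66 in DMSO and 4.60, 4.72 and 4.94 in AZD, so that DMSO replicate 3 stood above the other arrays of both groups. It was 6.06, 5.15 and 5.67 in the Ento arrays and 6.19, 4.82 and 5.79 in the Ento+AZD arrays, so that the list also varied between arrays there. 4 of the 36 were lower at an unadjusted p under 0.05, a share close to the 11.3% of all rows, and none was called. That count was 12 without AZD replicate 2, 6 without DMSO replicate 1 and 3 or 4 without 1 of the other 4 arrays, and the list median of -0.18 ranged from -0.43 to 0.01 over the fits without 1 array. The sensor of viral RNA IFIH1 had the smallest p of the list (4.62, 4.41 and 4.67 in DMSO, 2.69, 3.02 and 3.50 in AZD, -1.50, SE 0.34, adjusted p = 0.0865).

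Among further genes chosen with earlier results known, COBLL1, an actin-binding protein, was at 6.44, 5.80 and 5.48 in DMSO and at 3.11, 4.52 and 3.78 in AZD. Its log2 fold change of -2.10 (SE 0.43) was close to that of IL7R, with an adjusted p of 0.0679, and the groups did not overlap. LRRCC1, a centrosomal protein (-1.44, SE 0.37, adjusted p = 0.114), RTKN2 (-1.09, SE 0.24, adjusted p = 0.0753), and CILK1, a kinase of cilia (-0.93, SE 0.20, adjusted p = 0.0787), also missed the threshold in DG-75.

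The 6 Ento and Ento+AZD arrays of DG-75 gave the AZD response in the presence of Ento, as a contrast of other arrays. Both contrasts came from 1 fit of the 12 DG-75 arrays and share its estimates of spread and block, so that they are not fully independent. Ento+AZD against Ento had 168 calls, 15 higher (0.0587%) and 153 lower (0.598%). Leaving out the array of Ento+AZD replicate 1 or of Ento replicate 1 gave 0 calls. Leaving out Ento replicate 2 gave 1 call and leaving out Ento replicate 3 gave 389, while 4 calls were made with Ento+AZD replicate 2 left out and 135 with Ento+AZD replicate 3 left out. All 46 genes called for AZD alone had the same sign there, 42 had an adjusted p under 0.05 and 36 were also called in the same direction, which was 78.3% of the AZD calls and 21.4% of the calls in the presence of Ento. Over all rows 424 of 25575 had an adjusted p under 0.05 in Ento+AZD against Ento, and the median change was -0.06. The 36 were 33 of the 42 lower and 3 of the 4 higher genes. TXNIP changed by 1.09 (SE 0.13, adjusted p = 0.0162), HVCN1 by -1.45 (SE 0.14, adjusted p = 0.0114), LCK by -1.61 (SE 0.17, adjusted p = 0.0121) and MYB by -1.49 (SE 0.19, adjusted p = 0.0162). The median over the 42 lower genes was -1.25 for AZD alone and -1.20 with Ento present. 4 genes had an adjusted p above 0.05 with Ento present, namely CHRNA6, a nicotinic receptor subunit (-0.34, SE 0.18, adjusted p = 0.418), SVIL, an actin-binding protein (-0.52, SE 0.20, adjusted p = 0.244), HEY2, a Notch target (-0.94, SE 0.25, adjusted p = 0.0983), and CEP295NL (-0.93, SE 0.25, adjusted p = 0.0946). CHRNA6 and SVIL were low in DG-75, with means of 4.19 and 3.82 in DMSO and 3.07 and 2.67 in AZD. The G1/S and G2/M lists had medians of -0.89 and -0.88 with Ento present, and 17 and 8 of their genes were called lower. HEXIM1 (0.84, SE 0.17, adjusted p = 0.0348) and ARRDC3 (0.84, SE 0.13, adjusted p = 0.0199) passed the adjusted p in this comparison. MYC did not (-0.16, SE 0.12, adjusted p = 0.607). The departure from additivity, which asks whether the AZD response differs with and without Ento, gave 0 calls with limma, 672 rows at an unadjusted p under 0.05 and a smallest adjusted p of 0.999991. Across all 25575 rows the log2 fold changes of both comparisons correlated at 0.645, as a description over genes that are not independent.

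**Figure D4:**
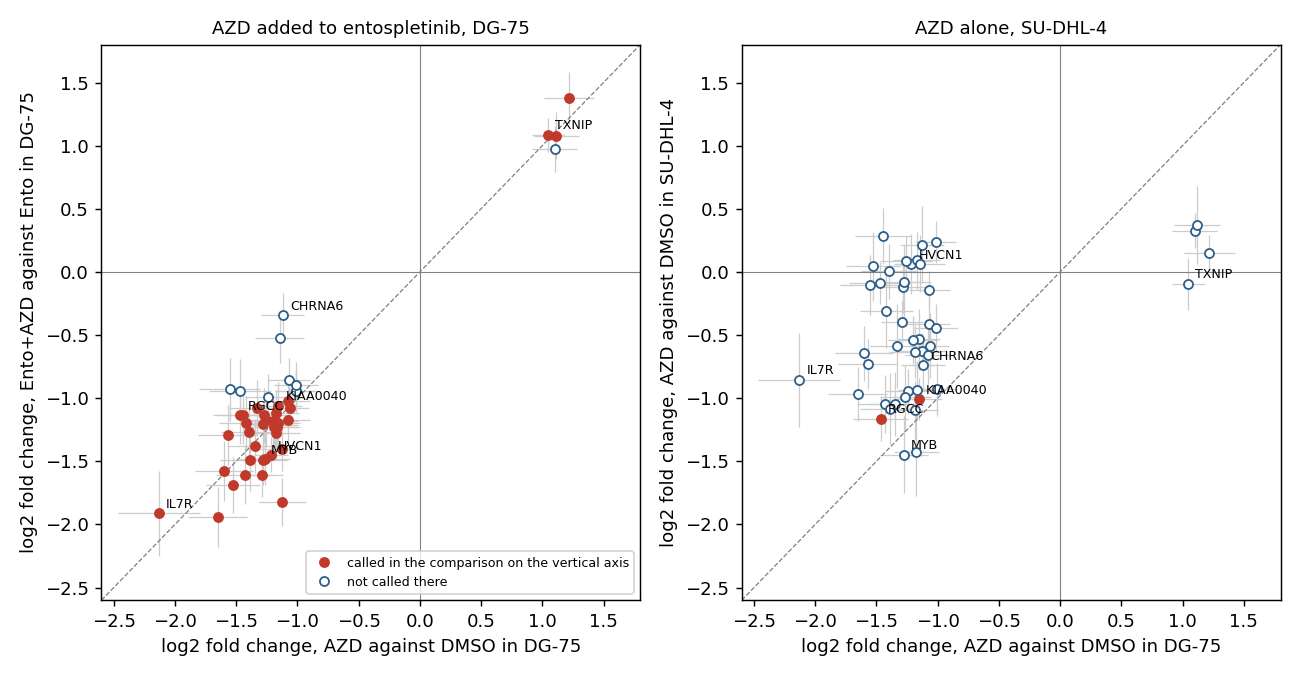
Log2 fold change of the 46 genes called for AZD against DMSO in DG-75 (horizontal axis, with SE) against Ento+AZD over Ento in DG-75 (left) and AZD over DMSO in SU-DHL-4 (right), both on the vertical axis with SE. Filled marks were called in the comparison on the vertical axis, and the dashed line marks equal change. On the left 36 of 46 are filled and lie near the line, and on the right RGCC and KIAA0040 are filled.

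In SU-DHL-4, AZD against DMSO had 46 calls as well, 46 lower (0.18%) and 0 higher (0%) with limma, where 480 rows were higher (1.88%) and 2455 lower (9.6%) at an unadjusted p under 0.05. Leaving out AZD replicate 2 of SU-DHL-4 gave 119 calls, and leaving out any other of the 6 arrays gave 0. 2 of the 46 genes called in DG-75, RGCC (-1.16, SE 0.18, adjusted p = 0.0341) and KIAA0040 (-1.01, SE 0.17, adjusted p = 0.0382), were called there. RGCC stood at a low level in DG-75, with a mean of 4.11 in DMSO. Of the 42 genes lower in DG-75, 33 had a negative change in SU-DHL-4, 25 of them at an unadjusted p under 0.05, and the median over the 42 was -0.59. Over all rows 63.9% had a negative change there, and the median was -0.08. MYB had a similar change in SU-DHL-4 (-1.45, SE 0.31, adjusted p = 0.0992). TXNIP was at -0.09 (SE 0.21) and HVCN1 at 0.06 (SE 0.24) there. The G1/S and G2/M lists had medians of -0.57 and -0.77 in SU-DHL-4, and none of their genes was called. The difference of the AZD response between the lines was tested for each gene in 1 fit of all 24 arrays, and limma gave 0 calls, with 1576 rows at an unadjusted p under 0.05 and a smallest adjusted p of 0.156. Without DG-75 AZD replicate 3 that count was 1. The genes called in DG-75 were chosen for a large change on arrays that enter this difference, so that their values in it are given as a description. For TXNIP the difference of DG-75 minus SU-DHL-4 was 1.14 (unadjusted p = 0.000251, adjusted p = 0.285), for HVCN1 -1.28 (0.000355 and 0.285) and for PLEK -1.25 (4.35e-05 and 0.278). The smallest p was that of S100A13, a calcium-binding protein that was 0.59 higher in DG-75 and had a log2 fold change of -1.05 in SU-DHL-4. Its difference was 1.64 with an SE of 0.26 (adjusted p = 0.156). The next in that direction by p were CFAP20DC (difference 1.56, SE 0.26, adjusted p = 0.169), DUSP1, a phosphatase of MAP kinases (1.45, SE 0.25, adjusted p = 0.174), ABLIM1 (1.13, SE 0.22, adjusted p = 0.278) and PTPN6, a phosphatase that dampens the B-cell receptor (1.54, SE 0.30, adjusted p = 0.281). CFAP20DC stood at a mean of 2.68 in DMSO of DG-75 and 6.05 in DMSO of SU-DHL-4, and S100A13 at 4.35 and 6.77. In the other direction the smallest p belonged to PLEK, followed by LINC01226 (-1.74, SE 0.34), BEST3, a chloride channel (-1.32, SE 0.26), NCOA7-AS1 (-1.27, SE 0.25) and SERINC2 (-1.55, SE 0.32), with adjusted p of 0.278 to 0.285. BEST3 had a mean of 9.77 in DMSO of DG-75 and 2.75 in DMSO of SU-DHL-4, LINC01226 of 4.07 and 2.55, and NCOA7-AS1 of 3.35 and 3.17. A fall can hardly be measured at such low levels, so that these differences do not show unlike responses. In this fit of all 24 arrays no gene was therefore shown to respond differently between the lines at the adjusted threshold. Across all rows the AZD changes of both lines correlated at 0.353, as a description over genes.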

How the data were processed

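The deposited table held 25575 rows of log2 expression values for 24 Clariom D arrays, made by the authors with robust multi-array average (RMA) normalization and limma, as the study's methods and processing notes name them. RMA removes background, gives all arrays one distribution of probe intensities and summarises probes, so that small shifts between array medians remain and single probes cannot be checked. The log base follows from RMA, and the build and annotation version are not given in the sources used here. 24636 of 25161 symbols were current RefSeq names. For a symbol with several rows the row with the highest mean over the DG-75 arrays was named.

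Fold changes were computed in R 4.3.3 with limma 3.58.1 (lmFit, eBayes) for the 12 arrays of DG-75, with 4 treatments and the replicate number as terms. The line difference came from 1 fit of all 24 arrays. P-values were adjusted by Benjamini-Hochberg over all 25575 rows, and a call needed an adjusted p under 0.05 and a log2 change above 1. Fold changes are on the log2 scale, and low levels were not filtered. Arrays of a group are few, and their number limits the precision. The comparison, gene lists and named genes were chosen with earlier results of these data known, and lists are given by counts and medians without a test of the list. Genes named were up to 10 called higher and 20 called lower by smallest p, all members of 5 short lists, called members and up to 3 members of each direction in other lists, 16 genes of interest, and up to 5 genes of each direction for the line difference, while the text says of other genes that they were chosen with values in view or they are remaining calls. Some genes of these lists are not reported here. In simulated data with 200 of 25575 rows changed by 1.5 (log2) in either direction, 88% were recovered with 1 false call. The simulated noise was drawn independently for each gene and array, without shifts between arrays. These figures therefore check the code and do not measure how reliable the real calls are. Promoter windows were RefSeq's. Alternatives, listed with their effect in the closing section, were another block, fit, scaling, filter, prior and threshold, each array left out in turn, and 1 row per symbol, which was added after the data were seen.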

Additional observations from a re-analysis of the deposited data

How the results depend on the processing

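The 46 calls for AZD against DMSO in DG-75 (4 higher, 42 lower) depended on the processing. There were 122 (7 and 115) in 1 fit of all 24 arrays, 103 (7 and 96) with rows under the median expression left out, 155 (9 and 146) with a trended robust prior, 75 (10 and 65) with no minimum fold change, 12 (0 and 12) with only the groups compared, 2 (1 and 1) after quantile normalization, 0 after subtraction of array medians and 0 with treat against a fold change of 1.2. Each fit without 1 array or without 1 replicate number gave 0 (range 0 to 0). Without the replicate block there were 39 calls, 1 of them higher and 38 lower. Deviations of same-numbered AZD and DMSO arrays correlated at -0.13 to 0.14, so that the data do not show the numbers to pair the arrays. The study's array model has a batch term, and the labels do not say whether the number, used here as the block, is that batch. With 1 row per symbol 48 genes were called. The 168 calls for Ento+AZD over Ento became 0 with only the groups compared, 103 after median subtraction, 424 with no minimum fold change, 4 with treat and 0 to 389 without 1 array or number. For SU-DHL-4 the 46 calls became 9 without the replicate block, 105 with the trended prior, 0 with only the groups compared, quantile normalization, median subtraction or treat, and 0 to 119 without 1 array or number. The line difference gave 4 calls with the trended prior and 0 to 1 without 1 array. The departure from additivity gave 0 calls in every alternative run. The cause was not tested, except that the groups-only fits have fewer arrays and the filter tests 12788 rows.

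No called gene changed sign under any alternative, which their selection for a large change on these arrays made likely beforehand. Of 544 list medians recomputed, 54 moved by more than the spread between replicate differences, most often after quantile normalization (13 lists) and median subtraction (7 lists). A call needed more than 2-fold, so that 29 rows under 2-fold that passed the adjusted p were not called. The median SE was 0.17 at 3 arrays a group, and no detection value per gene was used to separate low levels from background.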
